A study of Mus musculus with 6 samples.

Results

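The genes described here encode proteins of neutrophil granules and calprotectin, the calcium-binding protein of the neutrophil cytosol, and they were followed in RNA of cells sorted as macrophages from mouse fat tissues. They were chosen by name: S100a8, S100a9, Camp, Ngp, Elane, Mpo, Ltf, Lcn2, Retnlg and Ly6g. Of these 10 genes, 9 had a row in the table of 23946 gene symbols. Ly6g, which encodes the surface antigen most used to recognise mouse neutrophils, had no row under its symbol or under its 3 RefSeq synonyms, and is not analysed here. The cells came from female C57BL/6 mice of 6 to 8 weeks, from the omentum (OM) and from the mesenteric fat (MY). The 6 libraries were OM naive and MY naive, from mice that received no tumor cells, and OM 24h, OM 7d, MY 24h and MY 7d, taken 24 h and 7 d after injection of ID8, a mouse ovarian cancer line, into the peritoneal cavity. By the series design each group had 3 mice, and the sorted cells carried CD45, CD11b and F4/80 on their surface. With 1 library per condition there are no replicates and no p-values, and each difference describes 2 libraries.

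Neutrophils make their granule proteins in sequence while they mature in the bone marrow. The azurophil granule proteins, among them myeloperoxidase (Mpo) and neutrophil elastase (Elane), are transcribed first, in promyelocytes. The specific granule proteins follow in myelocytes and metamyelocytes: the cathelicidin precursor (Camp), the related neutrophilic granule protein (Ngp), lactoferrin (Ltf) and lipocalin 2 (Lcn2). S100a8 and S100a9, whose products pair to form calprotectin, and Retnlg, a secreted resistin-like protein, remain abundant in the RNA of circulating neutrophils. Monocytes also transcribe S100a8 and S100a9, and macrophages and epithelial cells can transcribe Lcn2. CD11b is carried by neutrophils as well as by macrophages.

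The genes lie on 7 chromosomes of the NCBIM37 assembly (mm9), here with their GENCODE positions. S100a8 (chr3:90472993-90473956, plus strand) and S100a9 (chr3:90496554-90499643, minus strand) are neighbours with 22597 bases between them. Camp (chr9:109749889-109751970, minus), Ngp (chr9:110322254-110325514, plus) and Ltf (chr9:110921796-110945270, plus) share chromosome 9, with gaps of 570283 and 596281 bases. Elane is at chr10:79349057-79350961 (plus), Mpo at chr11:87607083-87617915 (plus), Lcn2 at chr2:32240153-32243317 (minus) and Retnlg at chr16:48872721-48874611 (plus). Ly6g, at chr15:74987123-74989169 (plus), is the missing row. The transcripts of these genes shared 0 windows of 75 bases, the read length, with coding transcripts of other genes.

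The 250 bases before the RefSeq transcription start (sequences from the GRCm38.p6 table, each with 1 exact match in NCBIM37) are shown for 1 gene of each expression pattern described below. Capitals mark the letters TTGCNNAA or TTNNGCAA, a C/EBP-type motif, and GAGGAA or TTCCTC, the core that PU.1 prefers, on either strand. The 2 motifs do not overlap in these windows.
Elane, chr10:79348807-79349056, plus strand: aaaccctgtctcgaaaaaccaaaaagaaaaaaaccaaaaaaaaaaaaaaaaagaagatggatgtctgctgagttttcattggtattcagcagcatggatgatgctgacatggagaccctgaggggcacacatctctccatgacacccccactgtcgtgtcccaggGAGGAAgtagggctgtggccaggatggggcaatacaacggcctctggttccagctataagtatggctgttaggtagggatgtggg
Ltf, chr9:110921546-110921795, plus strand: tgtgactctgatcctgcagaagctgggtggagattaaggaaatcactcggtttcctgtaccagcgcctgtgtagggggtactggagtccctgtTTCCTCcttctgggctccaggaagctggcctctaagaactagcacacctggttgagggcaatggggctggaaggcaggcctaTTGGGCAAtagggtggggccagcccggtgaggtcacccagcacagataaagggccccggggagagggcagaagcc
S100a9, chr3:90499644-90499893, minus strand: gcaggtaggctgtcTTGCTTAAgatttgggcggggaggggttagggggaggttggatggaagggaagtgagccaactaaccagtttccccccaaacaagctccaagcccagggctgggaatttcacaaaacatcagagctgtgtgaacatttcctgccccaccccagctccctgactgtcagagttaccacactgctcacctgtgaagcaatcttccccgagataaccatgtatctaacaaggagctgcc
Retnlg, chr16:48872471-48872720, plus strand: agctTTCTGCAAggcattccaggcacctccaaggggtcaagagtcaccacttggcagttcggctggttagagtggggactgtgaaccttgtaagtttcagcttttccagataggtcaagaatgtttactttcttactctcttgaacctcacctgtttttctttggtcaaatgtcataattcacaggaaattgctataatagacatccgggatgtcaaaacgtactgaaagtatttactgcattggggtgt

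C/EBP and PU.1 are transcription factors of the granulocyte lineage. The C/EBP-type letters were present in the windows of S100a9, Ngp, Ltf, Lcn2, Retnlg and Ly6g and the PU.1 letters in those of S100a8, Elane, Mpo, Ltf, Lcn2 and Ly6g. Of 27025 promoters of the same length, 9.55% held the first and 23.1% the second. A match describes letters in the window and was not tested as a binding site.

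The level of expression is given as FPKM, fragments per kilobase of transcript for each 1000000 aligned. In the naive omentum the calprotectin genes were among the most abundant transcripts of the library, with S100a8 in place 15 and S100a9 in place 21 of all genes ordered by FPKM. Together they held 0.873% of the summed FPKM of OM naive, 1.77% of OM 24h and 2.50% of OM 7d. In the mesentery this share was 0.107% in MY naive, 0.0654% in MY 24h and 0.0101% in MY 7d. Thus the share went up from library to library in the omentum and down in the mesentery. The share depends on its denominator. The summed FPKM of S100a8 and S100a9 was 12663 in OM 24h and 14002 in OM 7d, while that of all genes was 713863 and 560290. The 9 genes together held between 1.29% (OM naive) and 3.72% (OM 7d) of an omental library and between 0.0410% (MY 7d) and 0.176% (MY naive) of a mesenteric one. Emr1, the gene of F4/80, was present in every library, with an FPKM of 20.5 (MY naive) to 135 (OM 24h). The summed FPKM of 9 macrophage genes, among them Csf1r and the C1q chains, was 2141 in OM naive, 12888 in OM 24h and 1233 in OM 7d, and 1322 in MY naive, 3332 in MY 24h and 1552 in MY 7d. In pooled RNA, fewer cells of a type and less RNA per cell cannot be told apart.

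**Figure D1:**
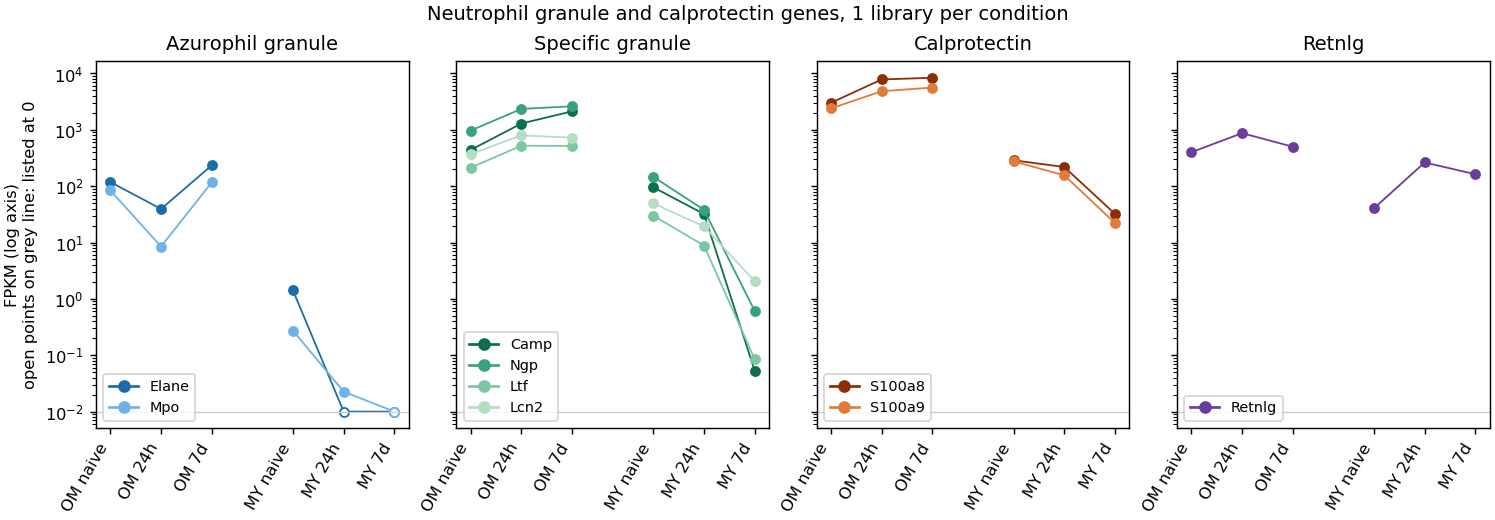
FPKM (log axis) of the 9 genes in the 6 libraries, grouped as azurophil granule, specific granule, calprotectin and Retnlg. Points are single libraries joined within a tissue, and open points on the grey line are listed at 0. All 9 genes were higher in each omental library than in the mesenteric library of the same time, and only Retnlg was higher after injection than before it in the mesentery.

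Between the naive tissues, each of the 9 genes was at least 2-fold higher in OM naive than in MY naive on the log2(FPKM + 1) scale. Genes tested were the 13064 that reached an FPKM of 1 in any library, and 8.18% of them were higher by as much, 8.05% lower and 16.2% either. All 9 genes with a row passed this filter on low values, Mpo through the omental libraries alone. The 2 azurophil genes had the widest gap, with a log2 difference of 5.63 for Elane and 6.06 for Mpo. The specific granule genes differed by 2.19 (Camp) to 2.88 (Lcn2) and the calprotectin genes by 3.12 (S100a9) and 3.39 (S100a8). The mesenteric FPKM of Mpo, however, was 0.274 and that of Elane 1.41, which correspond to an estimated 26.3 and 38.3 fragments.

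The azurophil granule genes were present in the omentum at all times and lowest at 24 h. Elane had an FPKM of 118 in OM naive, 39.4 in OM 24h and 235 in OM 7d, and of 1.41 in MY naive, with a listed 0 in both later mesenteric libraries. Mpo had an FPKM of 84.0 in OM naive, 8.49 in OM 24h and 117 in OM 7d, and of 0.274 in MY naive, 0.0226 in MY 24h and a listed 0 in MY 7d. The 2 genes moved the same way in the omentum, but not by the same amount. Mpo was 9.89-fold lower in OM 24h than in OM naive (log2 difference -3.16) and Elane was 3.01-fold lower (log2 difference -1.56). At 7 d both stood above the naive library, Elane by a log2 difference of 0.98 and Mpo by 0.48, which are under 2-fold.

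The specific granule genes went the opposite way to the azurophil genes in the omentum at 24 h. Camp had an FPKM of 440.2 in OM naive, 1294 in OM 24h and 2128 in OM 7d, and of 95.7 in MY naive, 32.0 in MY 24h and 0.0529 in MY 7d. Ngp had an FPKM of 970.2 in OM naive, 2352 in OM 24h and 2613 in OM 7d, and of 147 in MY naive, 38.0 in MY 24h and 0.608 in MY 7d. For both, every omental library was above every mesenteric one, the naive library was the lowest of the omentum, and it was the highest of the mesentery. Ltf, the iron-binding lactoferrin, had an FPKM of 213 in OM naive, 523 in OM 24h and 517 in OM 7d, and of 29.96 in MY naive, 8.84 in MY 24h and 0.0848 in MY 7d. Lcn2, which binds bacterial siderophores, had an FPKM of 370.1 in OM naive, 799 in OM 24h and 724 in OM 7d, and of 49.5 in MY naive, 19.3 in MY 24h and 2.05 in MY 7d. Ltf and Lcn2 followed the same order of tissues. Their values at 24 h and 7 d were close, and which was higher turned with the scaling: after rescaling to a sum of 1000000 the log2 difference from OM naive was 1.09 at 24 h and 1.42 at 7 d for Ltf, and 0.91 and 1.11 for Lcn2. The low values of MY 7d rest on few fragments, an estimated 0.938 for Camp, 9.53 for Ltf, 27.4 for Ngp and 65.0 for Lcn2.

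The calprotectin genes were the most abundant of the 9 in every omental library. S100a8 had an FPKM of 3020 in OM naive, 7826 in OM 24h and 8381 in OM 7d, and of 288 in MY naive, 219 in MY 24h and 32.1 in MY 7d. S100a9 had an FPKM of 2397 in OM naive, 4836 in OM 24h and 5621 in OM 7d, and of 275 in MY naive, 156 in MY 24h and 22.1 in MY 7d. For S100a8 and S100a9, as for each of the 9 genes, every omental library was above every mesenteric one. How many of all genes tested separate the tissues in this way was not counted, so the separation cannot be read as particular to these genes. The ratio of S100a8 to S100a9 stayed between 1.05 (MY naive) and 1.62 (OM 24h). S100a8 was in place 3 of all genes in OM 7d and in place 3057 in MY 7d.

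Retnlg had another pattern in the mesentery. Its FPKM was 400.0 in OM naive, 872 in OM 24h and 501 in OM 7d, and 40.5 in MY naive, 263 in MY 24h and 163 in MY 7d. Still, the omental libraries were all above the mesenteric ones, but MY naive was the lowest of the mesentery for this gene and the highest for the other 8. In MY 7d Retnlg was the most abundant of the 9 genes, in place 525 of all genes.

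Counted against the naive library of the same tissue, 7 of the 9 genes stood at least 2-fold above it in OM 24h (11.9% of all genes tested) and 2 were lower (6.45% of all genes tested, 18.3% in either direction). The 7 were the 4 specific granule genes, S100a8, S100a9 and Retnlg, with log2 differences from 1.01 (S100a9) to 1.55 (Camp), and the 2 were Elane and Mpo. S100a9 was thus just inside the threshold. When each library was rescaled to a sum of 1000000, which lowered the median of all genes by 0.17 in this comparison, 4 were higher and 2 lower. In OM 7d, 5 genes were at least 2-fold higher (11% of all genes tested) and 0 were lower (1.96% of all genes tested, 12.9% in either direction). These were S100a8, S100a9, Camp, Ngp and Ltf, led by Camp with a log2 difference of 2.27 and followed by S100a8 with 1.47. Elane and Lcn2 were just under the threshold, with log2 differences of 0.98 and 0.97. The same rescaling, which put the median of all genes at 0.12, made the count 7.

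In MY 24h, 1 gene was at least 2-fold higher than in MY naive (2.8% of all genes tested) and 5 were lower (1.52% of all genes tested, 4.32% in either direction). The higher gene was Retnlg, by 6.50-fold and a log2 difference of 2.67. The lower genes were Camp (-1.55), Ngp (-1.92), Ltf (-1.65) and Lcn2 (-1.32), with Elane at a listed 0. S100a8 and S100a9 stood within 2-fold of MY naive, with log2 differences of -0.40 and -0.81. In MY 7d, 1 gene was higher (0.498% of all genes tested), again Retnlg, by 4.03-fold, and 7 were lower (2.29% of all genes tested, 2.79% in either direction). The lower genes included S100a8 by 8.97-fold, S100a9 by 12.5-fold and Lcn2 by 24.1-fold. Camp and Ngp each had a log2 difference of -6.52 and Ltf of -4.83. Mpo was not counted, since a gene at 0.274 FPKM cannot be 2-fold lower on this scale.

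**Figure D2:**
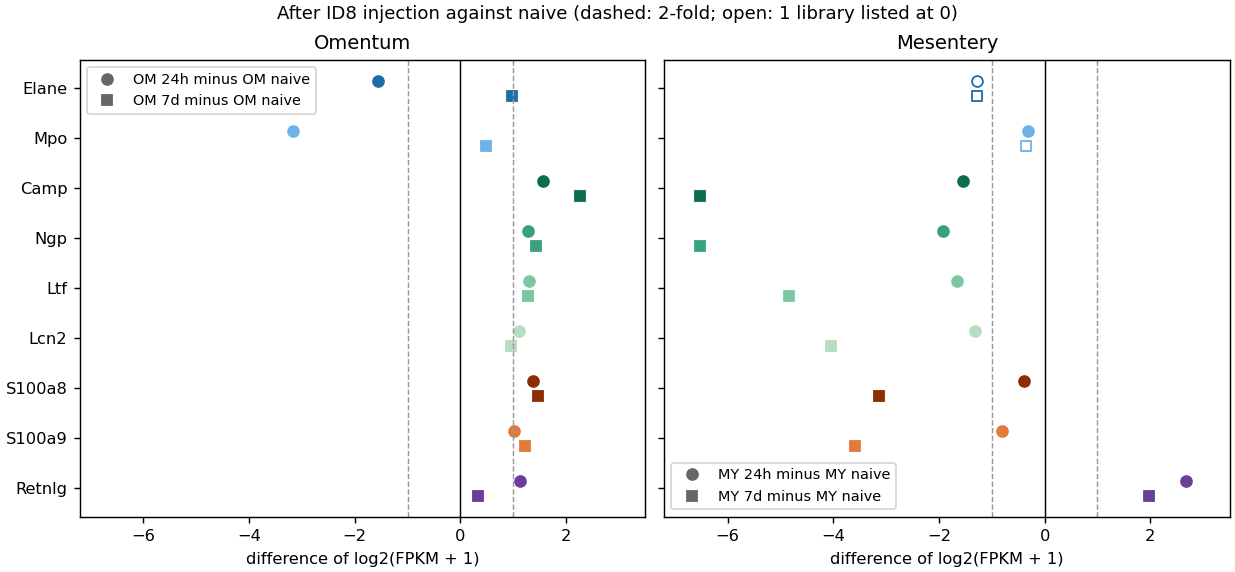
Difference of log2(FPKM + 1) between each library after ID8 injection and the naive library of the same tissue, for the 9 genes in the omentum (left) and mesentery (right). Circles are 24 h, squares 7 d, dashed lines mark 2-fold, and open symbols have a library listed at 0. In the mesentery Retnlg lay at 2.67 and 1.98 while the specific granule genes lay between -1.32 and -6.52.

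After injection, each of the 9 genes was also at least 2-fold higher in the omental than in the mesenteric library of the same time. Of all genes tested 13.9% were higher at 24 h, 10.2% lower and 24.1% either, and 14.1%, 4.99% and 19.1% at 7 d. At 24 h Ngp was 61.8-fold, Ltf 59.2-fold, S100a8 35.8-fold and Retnlg 3.32-fold higher. At 7 d S100a8 was 261-fold and S100a9 255-fold higher, while Retnlg was 3.07-fold higher. The gap between tissues was therefore narrower for Retnlg after injection than in the naive libraries (9.88-fold), and wider for S100a8 (10.5-fold in the naive libraries).

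To compare the genes without any scaling between libraries, each FPKM was divided by that of S100a8 in the same library. In the omentum Ngp was at 32.1% of S100a8 in OM naive, 30.05% in OM 24h and 31.2% in OM 7d. Ltf was at 7.06%, 6.68% and 6.16%, and Lcn2 at 12.3%, 10.2% and 8.63%, in the same order. Camp went from 14.6% to 16.5% and 25.4%, and Retnlg from 13.2% to 11.1% and 5.97%. The azurophil genes varied far more, with Elane at 3.92%, 0.504% and 2.80% and Mpo at 2.78%, 0.108% and 1.40%. Within the omentum OM 24h thus stood apart by its low azurophil genes, with either reference. With S100a9 in place of S100a8, Ngp was at 40.5%, 48.6% and 46.5% in the omentum, Lcn2 at 15.4%, 16.5% and 12.9%, and Retnlg at 16.7%, 18.0% and 8.91%. The steadiness of Ngp, and the lower values of Lcn2 and Retnlg at 24 h, thus depend on the reference.

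In the mesentery the proportions shifted with every later library. Ngp was at 50.9% of S100a8 in MY naive, 17.4% in MY 24h and 1.89% in MY 7d, and Ltf at 10.4%, 4.04% and 0.264%. Camp was at 33.2%, 14.6% and 0.165%, and Lcn2 at 17.2%, 8.81% and 6.40%. Retnlg went from 14.1% to 120% and 508%. In MY naive Elane was at 0.491% and Mpo at 0.0952%, each a little under its value in OM 24h. With S100a9 as the reference, Ngp was at 53.2%, 24.4% and 2.76% and Retnlg at 14.7%, 169% and 739% in the mesentery.

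**Figure D3:**
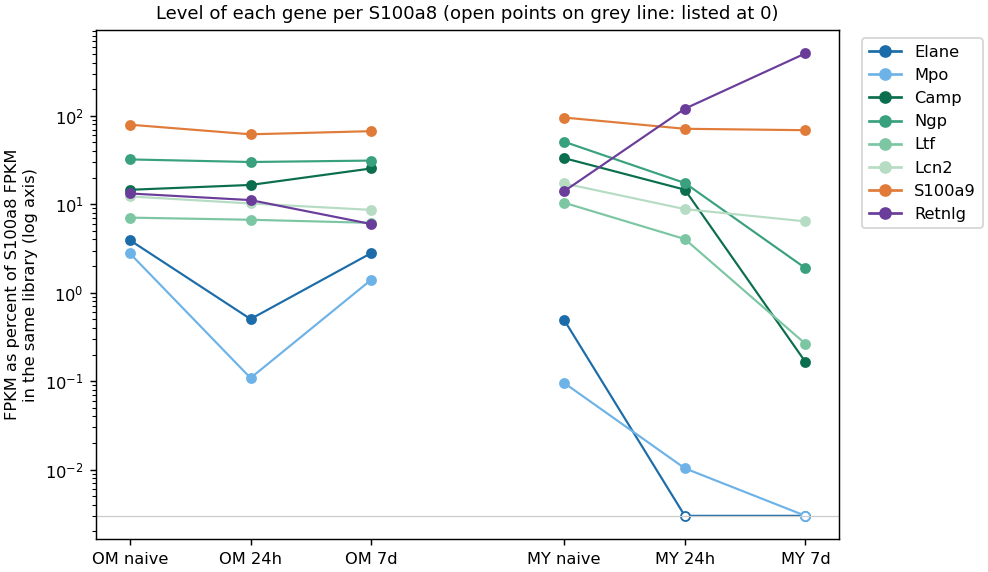
FPKM of 8 genes as a percent of the FPKM of S100a8 in the same library (log axis), with points joined within a tissue and open points on the grey line listed at 0. Ngp stays between 30.05% and 32.1% in the omentum and goes from 50.9% to 1.89% in the mesentery, where Retnlg reaches 508%.

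Set as classes, the 6 granule genes had a mean log2(FPKM + 1) of 8.05 in OM naive, 8.13 in OM 24h and 9.28 in OM 7d, and of 4.34 in MY naive, 3.00 in MY 24h and 0.41 in MY 7d. For the mature genes S100a8, S100a9 and Retnlg the means were 10.48, 11.65, 11.49, 7.22, 7.71 and 5.64 in the same order. The granule mean minus the mature mean was -2.43 in OM naive, -3.52 in OM 24h and -2.20 in OM 7d, and -2.88 in MY naive, -4.71 in MY 24h and -5.23 in MY 7d. It was lowest at 24 h in the omentum, and lower after injection than before it in the mesentery. Within the granule class, the mean of Elane and Mpo was 6.65 in OM naive, 4.29 in OM 24h and 7.38 in OM 7d. For Camp, Ngp, Ltf and Lcn2 it was 8.75, 10.05 and 10.23, so only Elane and Mpo were lower at 24 h. The sign of the difference depends on which genes stand for each class, and with wider lists the difference was positive in the omentum (1.60, 0.88 and 2.65). Under 9 alternatives OM 24h was the lowest omental library in 8, the exception being medians in place of means, and MY naive was the highest mesenteric library in 9.

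Other genes of neutrophil maturation were taken from lists of granule and mature neutrophil genes, 35 genes besides the members, of which 34 reached an FPKM of 1 in a library. In OM 24h 21 of the 34 stood at least 2-fold above OM naive and 2 below it, with a median log2 difference of 1.30 against 0 over all genes tested. Of all genes tested 11.9% were higher and 6.45% lower in this comparison, which also applies to the lists below. In OM 7d 12 were higher and 4 lower (median 0.48), against 11% and 1.96% of all genes tested. In MY 24h 6 were higher and 1 lower (median 0.35), against 2.8% and 1.52%. For MY 7d 0 were higher and 3 lower (median -0.21), against 0.498% and 2.29%. Of the 3 other azurophil genes, all were at least 2-fold higher in OM 7d than in OM naive, and only Ctsg was 2-fold lower in OM 24h. Ctsg, which encodes cathepsin G and is also transcribed in mast cells, had an FPKM of 11.6 in OM naive, 1.41 in OM 24h and 34.4 in OM 7d. Prtn3, the gene of proteinase 3, stood at 35.5, 29.1 and 105, and Ms4a3, a marker of granulocyte and monocyte progenitors, at 9.35, 8.68 and 26.6. In the mesentery the FPKM of these 3 genes was at most 0.576 in MY naive, and in MY 24h Prtn3 stood at 4.21.

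Among the specific granule genes that are not members, 5 of 6 stood at least 2-fold above OM naive at 24 h and 3 of 6 at 7 d. Of all genes tested 11.9% and 11% were higher by as much. Chil3, the chitinase-like protein Ym1 that alternatively activated macrophages also make, had an FPKM of 157 in OM naive, 555 in OM 24h and 629 in OM 7d, and of 36.2 in MY naive, 54.0 in MY 24h and 18.1 in MY 7d. Hp, which encodes the hemoglobin-binding haptoglobin, had 72.8, 188 and 166 in the omentum and 21.5, 40.9 and 12.96 in the mesentery. Cd177, a neutrophil surface protein, had 46.7, 113 and 79.6 in the omentum and 6.07, 3.27 and 2.11 in the mesentery. Fcnb, which encodes ficolin B, had 29.4, 36.3 and 52.0 in the omentum and 1.36, 0.0512 and 0.0243 in the mesentery. In the mesentery Fcnb and Cd177 had the order of the specific granule members, while Chil3, Hp and Olfm4 had their highest value at 24 h. Olfm4, the gene of olfactomedin 4, had 0.0519, 0.396 and 0.0827 there, all under an FPKM of 1, so its order rests on low values. In the omentum it had 1.34, 11.3 and 0.439, and so was below OM naive at 7 d.

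Of 22 mature neutrophil genes, 14 stood at least 2-fold above OM naive at 24 h. The formyl peptide receptor gene Fpr1 had an FPKM of 11.1 in OM naive, 51.4 in OM 24h and 9.49 in OM 7d, and the chemokine receptor gene Cxcr2 had 5.14, 14.0 and 3.43, so both had their highest omental value at 24 h. In OM 7d 6 of the 22 were higher and 4 lower (median -0.02), against 11% and 1.96% of all genes tested. The 4 were Stfa1, Stfa2l1, Gm5483 and Asprv1. In MY 24h 4 were higher than in MY naive, Csf3r, Padi4, G0s2 and Stfa2l1, and 0 were lower, against 2.8% and 1.52% of all genes tested. Csf3r, the receptor gene for G-CSF, had an FPKM of 5.99 in MY naive, 13.4 in MY 24h and 6.46 in MY 7d, and Padi4, whose enzyme citrullinates histones in neutrophils, had 3.41, 8.39 and 2.33. The gelatinase gene Mmp9, of the granules made last, had 10.1, 22.1 and 12.7 in the mesentery and 64.8, 168 and 64.1 in the omentum. The other gelatinase granule genes differed from it in the mesentery, with Mmp8, a collagenase, at 3.57, 3.76 and 1.76 and Pglyrp1, a peptidoglycan recognition protein, at 92.8, 77.1 and 64.5. Csf3r, Padi4 and Mmp9 had their highest value at 24 h in both tissues, as Retnlg did, but in MY 7d they were within 2-fold of MY naive, where Retnlg was 4.03-fold higher. The FPKM of Cxcr2 in the mesentery ranged from 4.20 to 5.59.

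**Figure D4:**
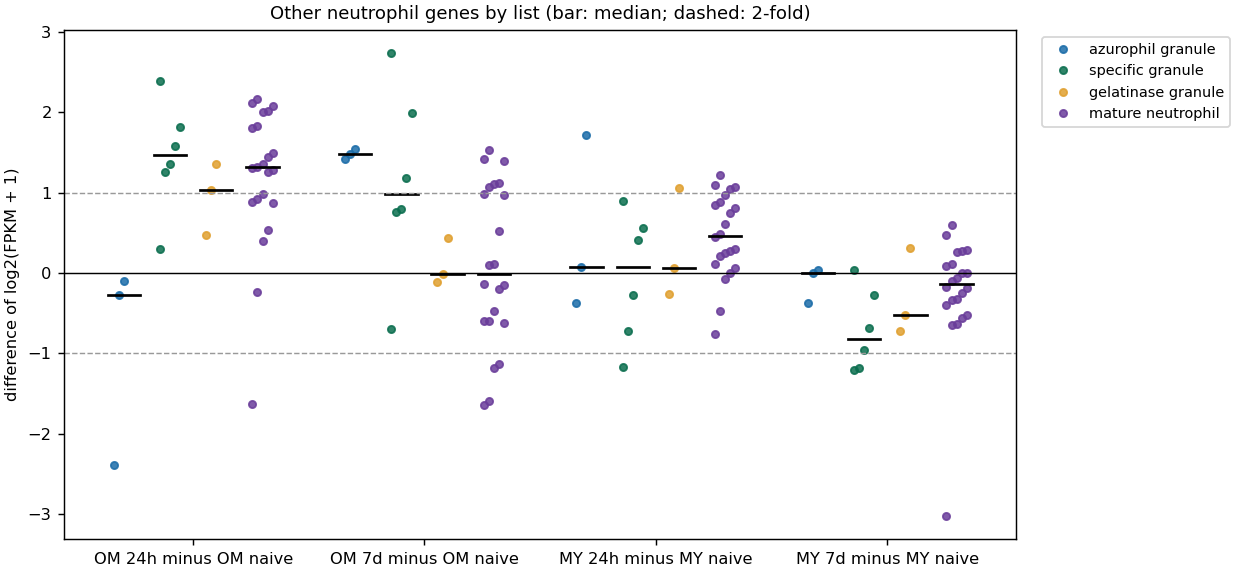
Difference of log2(FPKM + 1) against the naive library of the same tissue for 34 neutrophil genes that are not members, by list. Each point is a gene, bars are medians and dashed lines mark 2-fold. In OM 24h the mature list has a median of 1.32 and the azurophil list of -0.28, while in OM 7d the medians are -0.02 and 1.48.

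Regulators of granule formation did not follow the members as a group. Cebpe, the factor that drives the specific granule genes, had an FPKM of 12.4 in OM naive, 15.3 in OM 24h and 28.0 in OM 7d, and of 1.71 in MY naive, 7.25 in MY 24h and 3.97 in MY 7d. Gfi1, a repressor needed for neutrophil differentiation and also present in lymphocytes, had 2.62, 0.398 and 3.05 in the omentum and 9.68, 7.28 and 7.86 in the mesentery. Of 6 regulators that reached an FPKM of 1, 2 stood at least 2-fold above OM naive in OM 24h and 1 below it. In OM 7d 1 was higher, against 11% of all genes tested. Cd34 is a progenitor surface gene that endothelial and stromal cells also transcribe. It had 12.3, 5.42 and 51.4 in the omentum and at most 1.69 in the mesentery, with the omental order of the azurophil genes. Kit and Flt3, of the same list of progenitor and cell cycle genes, were lower in the omentum than in the mesentery at every time. The log2 differences in the naive, 24 h and 7 d pairs were -0.87, -1.88 and -0.86 for Kit. For Flt3 they were -0.91, -2.84 and -1.59. Kit had the omental order of Cd34, but Flt3 was below OM naive at 7 d, with a log2 difference of -0.46. The cell cycle gene Mki67 ranged only from 3.82 to 4.66 in the omentum.

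Other S100 genes were listed beside the calprotectin genes. Of 8 other S100 genes that reached an FPKM of 1, 1 stood 2-fold or more above OM naive in OM 24h and 1 below it, and the same counts held in OM 7d. In the mesentery 0 of the 8 were 2-fold apart from MY naive at either time. With 18.3%, 12.9%, 4.32% and 2.79% of all genes tested 2-fold apart in these 4 comparisons, counts of 0 to 2 among 8 genes are near the background. S100a6, the most abundant of them in the naive omentum, had an FPKM of 1337 in OM naive, 1089 in OM 24h and 1037 in OM 7d. In the mesentery it had 204, 263 and 142. Between the tissues, 4 of the 8 other S100 genes were at least 2-fold higher in OM naive than in MY naive, and 0 lower. At 24 h and at 7 d, 5 of the 8 were higher in the omentum and 0 lower. Of all genes tested, 8.18%, 13.9% and 14.1% were higher by as much in these pairs, and 8.05%, 10.2% and 4.99% lower. In the Ly6 cluster, to which Ly6g belongs, Ly6c2, a gene of inflammatory monocytes, had 164, 241 and 391 in the omentum and 184, 106 and 152 in the mesentery. Its log2 difference between the naive tissues was -0.16, whereas 4 of 6 monocyte genes, Fn1, F13a1, Ccr2 and Itgam, were at least 2-fold higher in OM naive (median of the 6, 1.66).

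The genes whose log2(FPKM + 1) pattern over the 6 libraries was most like that of S100a9, among the 7998 genes that reached an FPKM of 10, were 1100001G20Rik, Kdelr1, Pglyrp1, Fosl2 and Chil1. Pearson's r, a description over 6 libraries without a test, was 0.998 for 1100001G20Rik, which is also named Wfdc21, and 0.974 for Chil1. The FPKM of 1100001G20Rik was 98.4 in OM naive, 269 in OM 24h and 286 in OM 7d, and 16.1 in MY naive, 9.06 in MY 24h and 1.10 in MY 7d, which is the same order as S100a9. For Ngp they were Polr2k, Ctdsp2, 1100001G20Rik, Kdelr1 and Ccl3, with r from 0.993 to 0.962. Polr2k spanned only 17.3 to 30.9 FPKM, so that likeness of pattern here does not mean a like size of difference. Between members, r with S100a9 was 0.998 for Lcn2, 0.996 for Ltf, 0.988 for Ngp, 0.982 for Camp, 0.920 for Elane, 0.843 for Mpo and 0.639 for Retnlg.

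Marker genes of other cells also differed between these libraries, and their part in the results above was not tested. Of 9 macrophage genes 9 stood 2-fold or more above OM naive in OM 24h (11.9% of all genes tested) and 7 above MY naive in MY 24h (2.8%). The calprotectin and specific granule genes were thus higher together with macrophage genes in OM 24h but not in MY 24h. The summed FPKM of 4 B cell genes was 3958 in OM naive, 903 in OM 24h and 2442 in OM 7d, and 792, 522 and 1532 in the mesentery. For 5 T cell and NK cell genes it was 228, 12.2 and 126 in the omentum and 1701, 999 and 982 in the mesentery. All 5 were at least 2-fold lower in each omental library than in the mesenteric one of the same time. Of all genes tested 8.05% were lower by as much in the naive pair, 10.2% at 24 h and 4.99% at 7 d. For 6 mast cell and basophil genes the summed FPKM was 55.2, 0.406 and 69.0, with 3 of the 6 at a listed 0 in OM 24h, which is the order of the azurophil genes in the omentum. In the mesentery it was 23.6, 27.1 and 49.1, the opposite order to Elane and Mpo. For 4 mesothelial genes it was 56.5, 699 and 706, and at most 0.300 in the mesentery. The sum of 6 monocyte genes was 551, 1132 and 670 in the omentum and 259, 235 and 216 in the mesentery. Against MY naive, 2 of the 6 monocyte genes were at least 2-fold higher in MY 24h, where 2.8% of all genes tested were. These were Fn1 by 2.96 and F13a1 by 1.37 on the log2 scale. In MY 7d 0 of the 6 were 2-fold apart, where 2.79% of all genes tested were. Of 6 eosinophil genes, the defining peroxidase gene Epx was at 0 in 5 libraries and at 0.0303 in MY 7d, while Ccr3, an eotaxin receptor, and Siglec5 (Siglecf) differed between libraries. Ccr3 had an FPKM of 0.172, 0.0934 and 8.86 in the omentum and 0.371, 10.4 and 4.54 in the mesentery. Siglec5 had 0.639, 2.47 and 5.68 in the omentum and 0.523, 6.32 and 2.19 in the mesentery. Ccr3 and Siglec5 thus had the order of Retnlg in the mesentery but not in the omentum. The other listed eosinophil genes did not have this order in either tissue. In the mesentery Prg2 had 7.32, 3.94 and 7.36 and Ear2 had 26.1, 48.5 and 19.3, while Ear1 was at 0.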

How the data were processed

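RNA of cells sorted as CD45+CD11b+F4/80+ was sequenced from 6 conditions with 1 library each. The authors checked reads with FastQC 0.11.4, aligned them to mm9 with STAR 2.4.2a and computed FPKM with Cufflinks, and deposited 1 table of FPKM per gene symbol. FPKM are not counts, so no count test was run, and with 1 library per condition no test was made. Differences are of log2(FPKM + 1), so changes of low values are understated. Python 3.11.15 was used with pandas 2.3.3, numpy 2.4.6 and matplotlib 3.10.9. Genes tested reached an FPKM of 1 in any library, and 2-fold was the threshold. Because values below 0.08 FPKM came in steps, the FPKM of 1 fragment was estimated per library from transcripts over 1500 bases with a mean fragment length of 200 bases. In units of 1000000 fragments, this implied a depth of 29.3 (OM naive) to 53.5 (OM 7d). It was chosen after seeing the data and is approximate. Positions are from NCBIM37 and GENCODE M1, not the authors' UCSC annotation.

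The members and lists were chosen with earlier results of these data known. All 10 members, any gene of the lists, and for S100a9 and Ngp the 5 non-members most alike were named. Calls were tested on simulated data with 200 changed genes. Alternatives were pseudocounts of 0.1 and 5, 2 rescalings, other filters and other class lists. The values of 1 listed gene are not reported here.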

Additional observations from a re-analysis of the deposited data

Results flagged for a closer look

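With 1 library per condition, no library has replicates to stand beside, and the differences between the tissues given here were not tested. Each gene below was at least 2-fold apart from the naive library in both tissues, in opposite directions. The values are differences of log2(FPKM + 1).

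At 24 h the 4 specific granule genes were higher in the omentum and lower in the mesentery. Camp stood at 1.55 in the omentum and -1.55 in the mesentery. Ngp stood at 1.28 and -1.92, Ltf at 1.29 and -1.65, and Lcn2 at 1.11 and -1.32.

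At 7 d Camp stood at 2.27 in the omentum and -6.52 in the mesentery, Ngp at 1.43 and -6.52, and Ltf at 1.27 and -4.83. The calprotectin genes joined them, with S100a8 at 1.47 and -3.13 and S100a9 at 1.23 and -3.58. The mesenteric values of Camp and Ltf at 7 d rest on an estimated 0.938 and 9.53 fragments.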

How the results depend on the processing

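No paired analysis was possible because no condition has more than 1 library. Of 382 recomputed values, 309 stayed within 1.5-fold (0.58 on the log2 scale), 69 moved beyond it and 4 moved and changed sign. The cause was not tested, except that a pseudocount acts on low values by construction. All 28 recomputed counts of members at least 2-fold apart, with both directions added, stayed within 1.5 times. The higher members alone went from 7 to 4 in OM 24h against OM naive after rescaling to a sum of 1000000. Of the log2 differences of single members 212 stayed, 40 moved and 0 reversed. The 4 sign changes were in the granule mean minus the mature mean. With wider lists it was 1.60, 0.88 and 2.65 in OM naive, OM 24h and OM 7d, and without S100a8 and S100a9 it was 0.31 in OM 7d. Without those genes it was also -0.60 in OM naive, -1.64 in OM 24h, -1.04 in MY naive and -6.94 in MY 7d. With wider lists it was -0.033, -0.92 and -1.54 in MY naive, MY 24h and MY 7d. With medians it was -3.09, -2.90 and -3.20 in the omentum and -3.96 in MY 24h. Without Retnlg, chosen after seeing the data, it was -3.34, -4.45 and -3.46 in the omentum, -3.80 in MY naive and -4.37 in MY 7d. In MY 24h and MY 7d it was -5.81 and -7.47 with a pseudocount of 0.1 and -3.79 and -3.35 with 5, and in MY 7d -5.91 after rescaling to a sum of 1000000. Of the other neutrophil genes, a pseudocount of 5 left 15 of 23 at least 2-fold apart in OM 24h against OM naive, 9 of 16 in OM 7d against OM naive, 0 of 7 in MY 24h and 1 of 3 in MY 7d against MY naive, and 14 of 23 between the naive tissues. A pseudocount of 0.1 gave 15 and 9 in the mesentery at 24 h and 7 d, and rescaling to a sum of 1000000 gave 4 at 24 h. That rescaling also moved the share of higher genes among those 2-fold apart between OM 24h and OM naive from 64.9% to 50.4%.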

Other observations

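Genes whose products bind or accompany calprotectin were read in the same libraries. Slpi, which encodes an inhibitor of neutrophil elastase, had an FPKM of 51.6 in OM naive, 173 in OM 24h and 58.8 in OM 7d, and of 41.2 in MY naive, 95.4 in MY 24h and 82.0 in MY 7d. It was at least 2-fold higher than naive in OM 24h and MY 24h. Tlr4, a receptor that calprotectin can engage, had 10.1, 20.1 and 8.97 in the omentum and 3.70, 7.11 and 6.52 in the mesentery. Ager, the gene of the receptor RAGE, was low in every library, with 0.249, 0.241 and 0.231 in the omentum and 1.30, 0.991 and 0.264 in the mesentery. Csf3, which encodes the granulocyte growth factor G-CSF, was listed at 0 in 5 libraries and had an FPKM of 0.0834 in OM 7d.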
